A study of Mus musculus with 35 samples.

Results

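Retrogenes are gene copies made when a spliced mRNA is reverse transcribed and inserted elsewhere in the genome, so most carry no introns. The genes described here are 4 autosomal mouse retrogenes that encode proteins, Pgk2, Pdha2, Cstf2t and Gk2, and the X-linked parents they were copied from, Pgk1, Pdha1, Cstf2 and Gk. They were chosen by name as known parent and retrogene pairs, and each was located through the map of ENSEMBL genes and Iso-seq loci that was deposited. They are 8 of the 55356 genes in the deposited count table. Expression was measured by RNA-seq in C57BL/6J adult mice, in brain, cerebellum, heart and colon of females and of males, in ovary and in testis. These 10 groups hold 29 libraries, 2 of male heart and 3 of every other group. The labels name no treatment or mutation, and they do not state which libraries came from the same animal. P-values therefore measure the spread between libraries, which may be technical in part. Full-length cDNA reading (Iso-seq, 6 flow cells) enters only through the transcript models, and there the somatic tissues of each sex were pooled.

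During meiosis in the male, the X chromosome is transcriptionally silenced in spermatocytes, and much of this repression lasts into the haploid spermatids. Autosomal retrogenes of X-linked housekeeping genes are a textbook case of copies that are transcribed in male germ cells during and after this silencing. Pgk1 and Pgk2 encode phosphoglycerate kinase, one of the steps of glycolysis that yield ATP. Pdha1 and Pdha2 encode the alpha subunit of pyruvate dehydrogenase, the enzyme complex that converts pyruvate to acetyl-CoA in mitochondria. Cstf2 and Cstf2t encode an RNA-binding subunit of the cleavage stimulation factor, which recognises the sequence downstream of the poly(A) site. Gk and Gk2 encode glycerol kinase family proteins, of which the parent's product phosphorylates glycerol so that it can enter lipid synthesis or glycolysis.

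The 4 parents lay on the X chromosome of GRCm38.p6 and had many exons. Pgk1 (locus PB.13342) spanned chrX:106187154-106203691 on the plus strand, with 2 transcript models of 10 to 11 exons. Pdha1 (PB.13476) spanned chrX:160122216-160138417 on the minus strand, with 6 models of 2 to 12 exons. Cstf2 (PB.13371) spanned chrX:134059129-134086822 on the plus strand, with 9 models of 2 to 16 exons. Gk (PB.13278) spanned chrX:85702588-85776682 on the minus strand, with 11 models of 17 to 21 exons. The retrogenes lay on 4 different autosomes. Pgk2 (PB.5344, chr17:40207023-40208570, minus strand) and Gk2 (PB.9358, chr5:97455140-97456990, minus strand) each had 1 model of 1 exon. Pdha2 (PB.8059, chr3:141210215-141211795, minus strand) had 3 models, all of 1 exon. Cstf2t (PB.6240, chr19:31082869-31086594, plus strand) had 2 models of 1 to 2 exons and sat inside an intron of Prkg1, which is transcribed from the opposite strand.

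The loss of introns and the divergence since copying are both visible in the coding sequences. The following 60-base stretches were read from GENCODE M21 transcripts and cross an exon junction of the parent, with 30 bases on each side of it. The same stretch of the retrogene lies within 1 uninterrupted exon. Capitals mark the bases that differ between parent and retrogene. For Pgk1 and Pgk2 the stretch crosses the junction of coding exons 6 and 7 and holds 12 differences, and for Pdha1 and Pdha2 it crosses exons 6 and 7 with 12 differences. For Cstf2 and Cstf2t it crosses exons 8 and 9 with 17 differences, and for Gk and Gk2 exons 11 and 12 with 13 differences.
Pgk1: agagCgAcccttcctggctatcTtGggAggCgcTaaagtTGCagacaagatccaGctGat
Pgk2: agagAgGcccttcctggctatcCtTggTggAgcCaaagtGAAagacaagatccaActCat
Pdha1: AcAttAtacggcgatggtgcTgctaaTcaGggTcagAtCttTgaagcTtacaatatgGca
Pdha2: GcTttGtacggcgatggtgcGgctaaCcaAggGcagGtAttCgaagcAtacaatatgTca
Cstf2: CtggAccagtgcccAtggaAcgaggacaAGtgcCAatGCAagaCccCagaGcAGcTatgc
Cstf2t: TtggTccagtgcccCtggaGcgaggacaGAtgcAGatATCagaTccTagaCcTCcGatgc
Gk: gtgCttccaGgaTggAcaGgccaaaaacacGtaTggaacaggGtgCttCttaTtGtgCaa
Gk2: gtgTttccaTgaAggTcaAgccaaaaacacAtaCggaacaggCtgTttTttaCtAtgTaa

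Over the aligned coding sequence, Pgk2 was identical to Pgk1 at 992 of 1251 bases (79.3%). Pdha2 matched Pdha1 at 885 of 1170 bases (75.6%), and Gk2 matched Gk at 1337 of 1659 bases (80.6%). Cstf2t matched Cstf2 at 1294 of 1720 aligned bases (75.2%), and this pair had the most gaps, with 196 gap columns and coding lengths of 1896 and 1740 bases. No 100-base window of any retrogene transcript occurred without mismatch in its parent or in a transcript of any other annotated gene. Only uniquely mapped reads were counted, and over these windows a read of a retrogene could be told apart from one of its parent.

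The parents were less separable from other genes. Of the 2240 windows of 100 bases in Pgk1 transcripts, 1157 (51.7%) also occurred in another gene, in Pgk1-rs7, Gm5537 or AC131796.1. Reads from such windows map to more than 1 place and were not retained, so the level of Pgk1 may be understated in every library. Pdha1 shared 9.09% of its windows with Map3k15, and Cstf2 shared 3.09% with Nox1, each a gene that overlaps it on the opposite strand. The overlaps covered 603 exon bases of Pdha1 (21.2%), 484 of Cstf2 (8.38%, with Nox1 and the microRNA gene Mir3112) and 84 of Gk (2.24%, with Gm14764). The library kit marks the strand, but whether the counting used it is not given in the sources used here, so reads in these overlaps cannot be told apart.

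In CpG content, the sequence upstream of Cstf2t was closer to that of the parents than to that of the other retrogenes. The 250 bases before the RefSeq start were read for all 8 genes, and 4 are printed here because Cstf2t stood apart from the other 3 retrogenes both in this sequence and in its expression. Capitals mark CpG dinucleotides, the sites of DNA methylation. The stretches are chr17:40208610-40208859 (minus strand) for Pgk2, chr3:141212356-141212605 (minus) for Pdha2, chr5:97457024-97457273 (minus) for Gk2 and chr19:31082591-31082840 (plus) for Cstf2t, all on GRCm38.p6.
Pgk2: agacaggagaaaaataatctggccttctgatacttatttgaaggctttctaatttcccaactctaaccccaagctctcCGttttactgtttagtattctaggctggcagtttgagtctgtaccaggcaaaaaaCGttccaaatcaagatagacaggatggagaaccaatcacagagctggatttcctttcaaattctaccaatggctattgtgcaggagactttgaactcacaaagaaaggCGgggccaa
Pdha2: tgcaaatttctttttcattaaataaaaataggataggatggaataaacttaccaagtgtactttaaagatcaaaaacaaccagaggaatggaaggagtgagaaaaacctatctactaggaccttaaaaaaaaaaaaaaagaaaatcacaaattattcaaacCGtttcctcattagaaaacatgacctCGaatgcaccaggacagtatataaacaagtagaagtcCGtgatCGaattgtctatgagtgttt
Gk2: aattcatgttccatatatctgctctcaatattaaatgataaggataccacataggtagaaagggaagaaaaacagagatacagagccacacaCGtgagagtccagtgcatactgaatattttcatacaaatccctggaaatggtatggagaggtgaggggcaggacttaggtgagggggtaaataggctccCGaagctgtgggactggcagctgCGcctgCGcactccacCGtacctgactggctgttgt
Cstf2t: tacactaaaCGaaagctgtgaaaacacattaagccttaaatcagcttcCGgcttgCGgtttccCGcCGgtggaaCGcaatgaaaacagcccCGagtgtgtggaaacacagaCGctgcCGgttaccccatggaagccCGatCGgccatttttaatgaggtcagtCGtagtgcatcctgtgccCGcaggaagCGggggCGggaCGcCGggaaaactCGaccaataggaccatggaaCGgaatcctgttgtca

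Pgk2, Pdha2 and Gk2 had 3, 4 and 5 CpGs in this window, at or below the median of 6 over 27025 mouse promoters. Cstf2t had 19, a number that 19.6% of promoters reach, and the parents Pgk1, Pdha1, Cstf2 and Gk had 17, 15, 17 and 21. The GC content was 42.0%, 31.6% and 47.2% for Pgk2, Pdha2 and Gk2, 54.4% for Cstf2t and 57.6% to 67.2% for the parents, against a median of 52%. The presence of 5 motifs was recorded on both strands. TATAAA, the TATA box, was found only before Pdha2, 44 to 39 bases before the RefSeq start, and in 13.0% of all promoters. CCAAT was found before Pgk1, Pgk2 (2 sites) and Cstf2t, and in 34.5% of promoters. GGGCGG, the GC box, was found before Pgk1, Cstf2, Cstf2t and Gk (3 sites), and in 32.9%. The cAMP response element TGACGTCA was found before none of the 8 genes (1.62% of promoters), and its core TGACG, which the longer motif contains, only before Cstf2 (2 sites, 17.9% of promoters). The first base of the Iso-seq locus lay within 137 bases of the RefSeq start for 7 genes, and for Pdha2 it lay 560 bases inside it, so the window before Pdha2 is placed by RefSeq alone.

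Library totals ranged from 11742417 to 36194255 counts. Each group expressed the markers of its labelled tissue. The 6 spermatid markers (Acrv1, Tnp1, Tnp2, Prm1, Prm2 and Spaca1) summed to 23000 to 28200 FPKM in testis and to at most 25 FPKM in any other library. The 6 spermatocyte markers summed to 490 to 581 FPKM in testis and to 8.2 to 58.1 FPKM elsewhere. Here FPKM is the count of a gene divided by its length, the union of its exons in kilobases, and scaled to the TMM-corrected library size in place of the plain total, where TMM is edgeR's correction for the RNA composition of a library. The TMM factors ranged from 0.604 to 1.45, and scaling to library size alone would shift the median gene by −0.22 (log2) in testis against the other groups and by −0.63 in testis against ovary. In heart against brain the shift would be −0.38. In all, 3 libraries stood apart from their group. Female colon 1 and male colon 3 had 181 and 225 FPKM of Fabp6 (the ileal bile acid-binding protein) against 0.0904 to 1.23 in the other colon libraries, and 104 and 43.2 FPKM of Sis (sucrase-isomaltase) against 0.095 to 0.148. Female heart 3 had 623 FPKM of the adipocyte hormone Adipoq against 0.0758 to 2.45 in the other heart libraries, and its 3 heart markers summed to 6410 FPKM against up to 24900. Adipoq was also present in testis (36.0 to 44.7 FPKM), colon (6.09 to 76.1) and ovary (3.51 to 57.8), and stood at 0.31 or less in brain and cerebellum. The adipocyte genes Plin1 and Cfd had 5.61 to 11.1 and 106 to 143 FPKM in testis. Their part in the testis differences was not tested.

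Of the 4 retrogenes, Pgk2, Pdha2 and Gk2 were abundant in testis and almost uncounted elsewhere, and Cstf2t was not. Pgk2 reached 621, 656 and 625 FPKM in the 3 testis libraries (634 ± 19.2, SD, n = 3). Gk2 reached 346, 334 and 311 FPKM (330 ± 17.6), and Pdha2 reached 104, 105 and 96.8 FPKM (102 ± 4.56). In the 26 other libraries the median was 0 for each of these 3 genes, and the highest value was 1.20 FPKM for Pgk2, 0.147 for Pdha2 and 0.142 for Gk2. No library outside testis came near the testis range. These are whole tissues, so here and throughout, fewer cells of a type and less RNA per cell cannot be told apart.

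Cstf2t had 18.2, 15.4 and 16.3 FPKM in testis (16.6 ± 1.40), inside its range of 9.82 to 37.7 FPKM in the other 26 libraries (median 19.0). Of the 4 genes known as testis retrogenes, 3 were thus largely restricted to testis in these libraries and Cstf2t was not. In edgeR's quasi-likelihood test, with the 9 other groups averaged as the reference for testis, 3 of the 4 retrogenes were called higher at a Benjamini-Hochberg adjusted p under 0.05 (adjusted p = 8.59e-20 for Pgk2, 6.92e-17 for Pdha2 and 6.32e-25 for Gk2). Of all 29911 genes tested, 40.6% were called higher. Pdha2 and Gk2 passed the filter on low counts only with the testis libraries in it, and of the 3449 genes of which this held 99% were called higher, so their calls follow from the filter and are given as a description. Pgk2 and Cstf2t passed without testis too, as did 26462 genes of which 33% were called higher. Outside testis, Pgk2 had more than 3 counts only in female colon 1, female colon 3 and male colon 3. Its pass without testis rests on these libraries, and its call is therefore also given as a description. The 4 retrogenes are listed for their known expression in testis, so their direction is not independent evidence. Cstf2t differed by −0.26 ± 0.12 (log2, SE) and was not called (adjusted p = 0.0545). It was called lower without the 3 libraries that stood apart (−0.28, adjusted p = 0.0126), with library size alone (−0.47, adjusted p = 0.000265), with no filter on low counts (−0.42, adjusted p = 0.00447), and when female cerebellum 3, ovary 1, female heart 3 or male brain 1 was left out. Over all fits with 1 library left out, its difference ranged from −0.32 to −0.15.

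**Figure D1:**
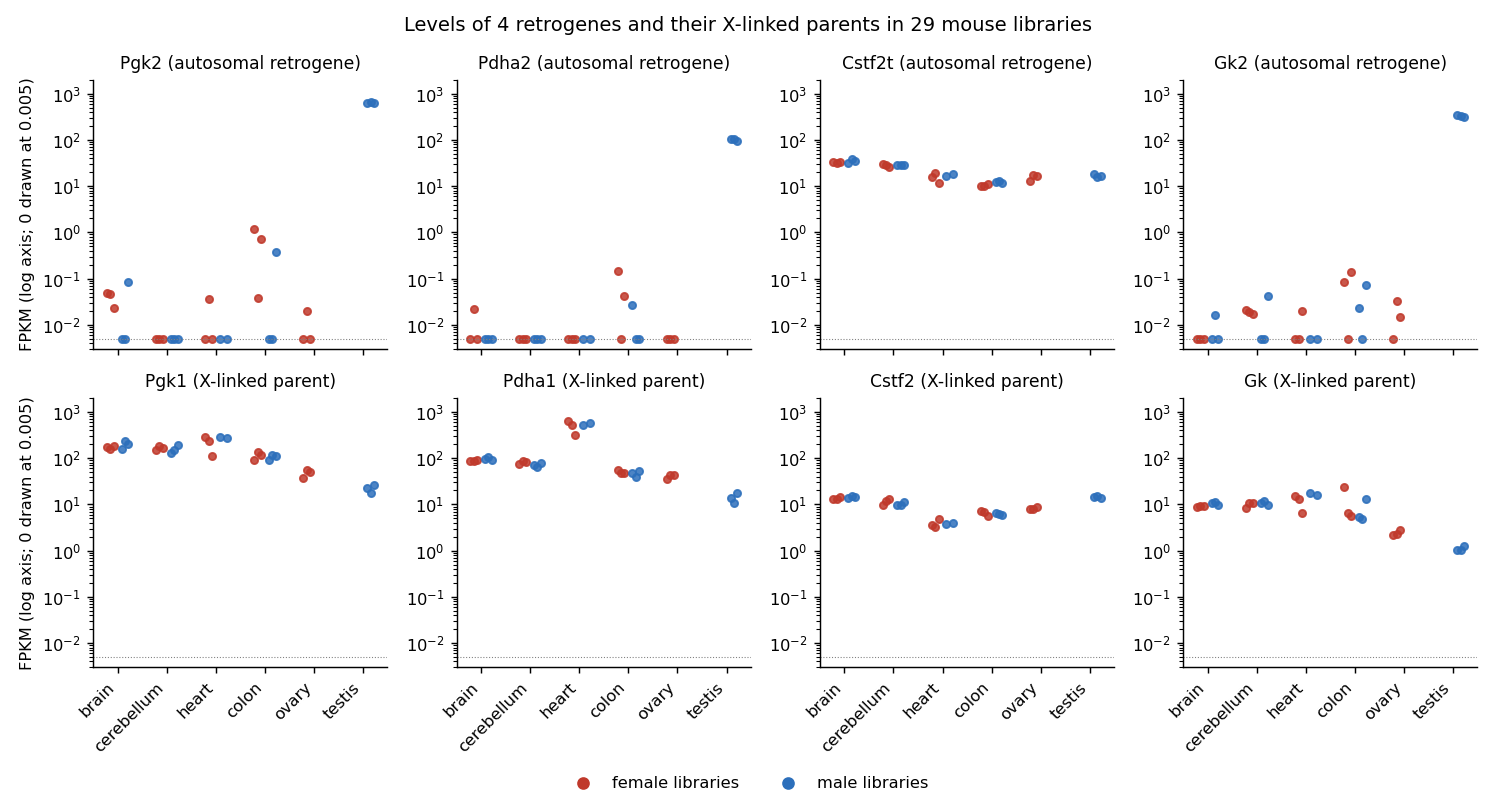
Level of each of the 8 genes in every library (points, FPKM on a log axis, values of 0 drawn at 0.005) by tissue, with female and male libraries in different colours. Pgk2, Pdha2 and Gk2 lie at 96.8 FPKM or more in the 3 testis libraries and at 1.20 FPKM or less elsewhere, while Cstf2t lies between 9.82 and 37.7 FPKM in all 29.

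Because the counts outside testis were so few, fitted fold changes of these genes depend on the small number added before taking logs, and pooled counts are given instead. Pgk2 had 76348 counts in the 3 testis libraries and 61 in the other 26, a rate ratio of 9810 (exact 95% interval 7640 to 12800). Pdha2 had 12536 and 6 counts, a ratio of 16400 (7520 to 44600). Gk2 had 47503 and 19 counts, a ratio of 19600 (12500 to 32600). These intervals cover counting error only. In the ovary libraries together, Pgk2 had 1 count, Gk2 had 3 and Pdha2 had 0. Set against the limit of 3 counts over the 3 ovary libraries, Pdha2 was at least 5100-fold higher in testis.

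Colon held most of the few counts of Pgk2 and Pdha2 outside testis. The 6 colon libraries held 51 of the 61 Pgk2 counts, 5 of the 6 Pdha2 counts and 9 of the 19 Gk2 counts. Without colon, the rate ratios were 49600 (27000 to 104000) for Pgk2, 81500 (14600 to 3220000) for Pdha2 and 30900 (16800 to 64400) for Gk2. Female colon 1 held 3 of the 6 Pdha2 counts, and without it the ratio of Pdha2 was 32100 (11000 to 156000) and that of Pgk2 15800 (11500 to 22500). Female colon 1, female colon 3 and male colon 3 had 24, 17 and 9 Pgk2 counts, and each of the other 23 libraries outside testis had at most 3. The same 3 libraries had the most counts of the sperm chromatin genes Prm1 (47, 26 and 17), Prm2 (87, 72 and 42) and Tnp1 (14, 22 and 17). In the remaining libraries outside testis these 3 genes had at most 7, 11 and 7 counts. Their part in the Pgk2 counts was not tested. By edgeR, colon was called higher than brain, cerebellum, heart and ovary for Pgk2 (adjusted p = 0.00948, 0.000768, 0.00956 and 0.00932), than cerebellum for Pdha2 (adjusted p = 0.033) and than brain and heart for Gk2 (adjusted p = 0.00575 and 0.048), where 58.6% of all genes were called over the pairs of tissues. DESeq2 called all 7 as well. Without the 3 libraries that stood apart, edgeR called 0 of the 7, and 2 had an unadjusted p under 0.05. The 4 differences of Pgk2 were then 0.06 to 3.40 in size (log2) in place of 2.92 to 6.23. Those of Pdha2 against cerebellum (2.64 in place of 3.12) and of Gk2 against brain (2.69 in place of 3.21) and heart (3.56 in place of 3.04) stayed near their size. These 2 genes had at most 3 and 4 counts in any library outside testis, so such sizes depend on the small number added before taking logs. The 4 calls of Pgk2 were lost without male colon 3 alone, that of Pdha2 without female colon 1 or male colon 1, and that of Gk2 against heart in 18 of 29 fits with 1 library left out (log2 2.54 to 4.06 over the 29, 3.04 with all), while that of Gk2 against brain was kept in all 29. The call of Gk2 against heart was also lost with the replicate number as a block, at much the same size (3.02, adjusted p = 0.0582).

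**Figure D2:**
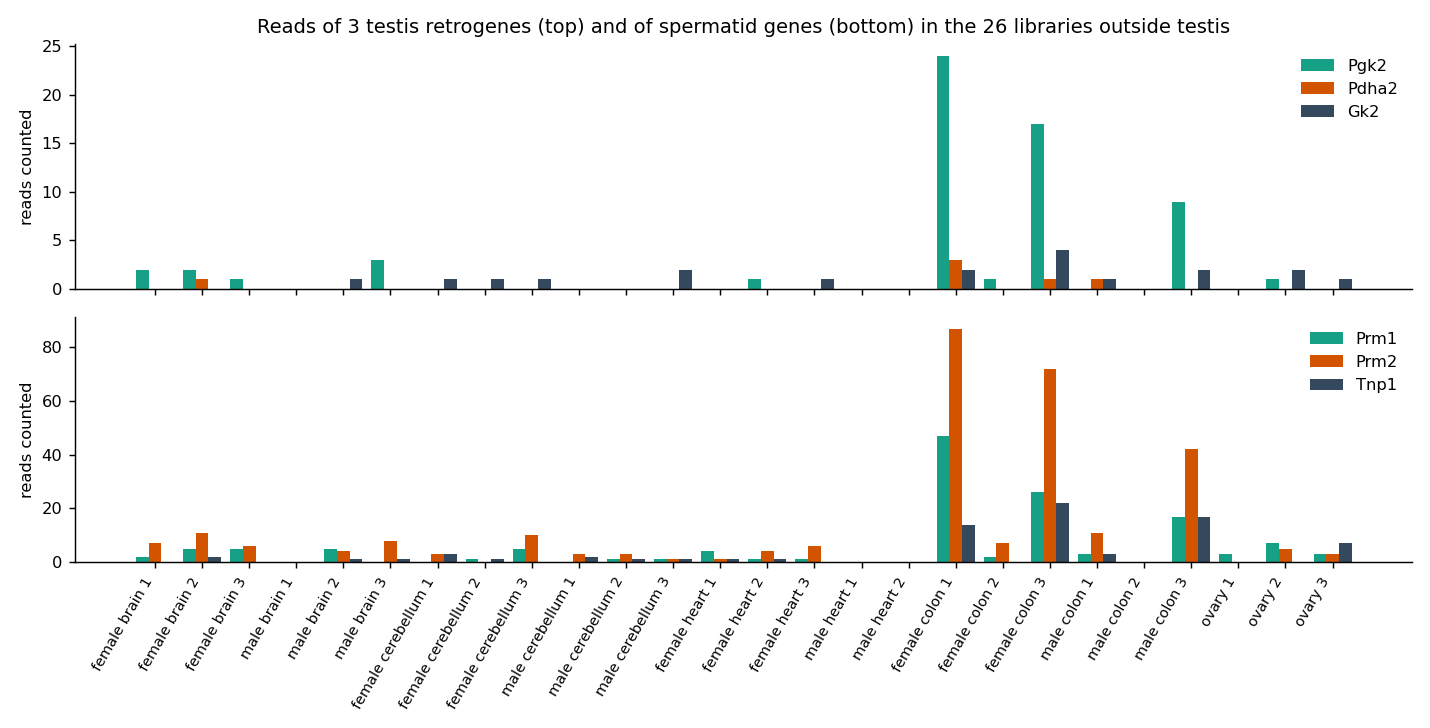
Reads counted for Pgk2, Pdha2 and Gk2 and for the spermatid genes Prm1, Prm2 and Tnp1 in each of the 26 libraries outside testis. Female colon 1, female colon 3 and male colon 3 hold 50 of the 61 Pgk2 reads and also the most reads of Prm1, Prm2 and Tnp1.

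The X-linked parents Pgk1, Pdha1 and Gk were lower in testis than in any other tissue, while Cstf2 was higher in testis than in the other groups on average. Pgk1 had 22.8, 17.8 and 26.4 FPKM in testis (22.4 ± 4.34, n = 3) against 37.6 to 291 elsewhere (median 153), and was 6.56-fold lower than the other groups on average (log2 −2.71 ± 0.23, SE, adjusted p = 8.6e-11). Pdha1 had 13.8, 10.9 and 18.0 FPKM (14.2 ± 3.56) against 36.3 to 624 (median 80.9), 7.25-fold lower (−2.86 ± 0.18, adjusted p = 2.21e-13). Gk had 1.03, 1.01 and 1.25 FPKM (1.10 ± 0.134) against 2.14 to 24.0 (median 9.76), 8.33-fold lower (−3.06 ± 0.38, adjusted p = 8.87e-08). For each of these 3 genes all 3 testis libraries lay below all 26 others. Cstf2 had 14.7, 14.9 and 14.0 FPKM (14.5 ± 0.488) within the wider range of 3.19 to 15.2 (median 8.33), and was 1.85-fold higher (0.89 ± 0.10, adjusted p = 8.3e-09).

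Thus 3 of the 4 parents were called lower in testis, where 26.7% of all genes tested and 38.7% of the 775 X-linked protein-coding genes tested were called lower, and 1 was called higher (41.0% of those X-linked genes). The median difference of the X-linked genes was −0.11 (log2) and that of all genes was 0.11, against 0 for all protein-coding genes. The spermatid and spermatocyte markers given above moved with these differences, and so did the 5 Leydig cell markers, which summed to 1000 to 1420 FPKM in testis, 890 to 1730 in ovary and at most 6.82 in any other library. The 6 Sertoli cell markers summed to 504 to 514 FPKM in testis, within their range elsewhere (15.1 to 623). The 6 spermatogonia markers summed to 57.7 to 67.9 FPKM in testis, also within their range elsewhere (20.8 to 418). The part of these cells was not tested.

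Pgk1 had its highest mean in heart, the order of its tissue means being heart 241, brain 184, cerebellum 161, colon 111, ovary 48.5 and testis 22.4 FPKM. Heart was not called against brain (0.42 ± 0.18 log2, adjusted p = 0.0503), and brain and cerebellum (0.18 ± 0.17, adjusted p = 0.512) did not differ beyond their spread. Each step from cerebellum down was called (adjusted p = 0.00847, 8.61e-05 and 0.000371 in turn). The 5 heart libraries had 291, 239 and 112 FPKM in females and 288 and 277 in males, and the value of 112 came from female heart 3. Without the 3 libraries that stood apart, the heart mean was 274 FPKM and heart exceeded brain (0.58, adjusted p = 0.000912), while with library size alone the difference was −0.05. This step was also called by DESeq2 (0.55), with no filter on low counts (0.46) and with the replicate number as a block (0.44). It was called too when ovary 1, female heart 3, female colon 1, male brain 2, male cerebellum 3, testis 2 or testis 3 was left out (0.42 to 0.64). The step from cerebellum to colon was not called by DESeq2 (0.33, adjusted p = 0.0722) or without testis 2 (0.38, adjusted p = 0.0512).

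Pdha1 was dominated by heart, a tissue that oxidises much of its fuel in mitochondria. Its heart libraries had 624, 513 and 322 FPKM in females and 522 and 580 in males, and the lowest of these was again female heart 3. The heart mean of 512 FPKM was followed by brain 93.5, cerebellum 77.2, colon 48.7, ovary 40.3 and testis 14.2. Heart exceeded brain by 2.47 ± 0.15 (log2, adjusted p = 8.26e-14). Brain and cerebellum (adjusted p = 0.141) and colon and ovary (adjusted p = 0.196) did not differ beyond their spread, while cerebellum exceeded colon and ovary exceeded testis (adjusted p = 0.000124 and 3.03e-07). Brain exceeded cerebellum without the 3 libraries that stood apart (0.28, adjusted p = 0.0449), and colon exceeded ovary by DESeq2 (0.47, adjusted p = 0.00759) but not with library size alone (−0.02). Map3k15, the gene on the opposite strand that shares exon bases with Pdha1, followed the same order, with 74.9 FPKM in heart, 14.9 in brain and 2.64 in testis. How many of its reads came from the shared bases was not tested.

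Cstf2 was highest in testis and brain. The tissue means were 14.5 FPKM in testis, 14.1 in brain, 10.8 in cerebellum, 8.18 in ovary, 6.38 in colon and 3.86 in heart. Testis and brain did not differ beyond their spread (0.05 ± 0.12 log2, adjusted p = 0.737), although DESeq2 called testis higher (0.27, adjusted p = 0.0288), and every later step was called, with adjusted p between 2.73e-06 and 0.0164. With library size alone, the steps from brain to cerebellum (0.24) and from cerebellum to ovary (0.10) were not called, and the step from ovary to colon was not called by DESeq2 (0.16) or without ovary 3 (0.32). The step from cerebellum to ovary was not called without testis 2 (0.29, adjusted p = 0.0503), and with no filter on low counts neither this step (0.36, adjusted p = 0.0517) nor that from ovary to colon (0.33, adjusted p = 0.0776) was called. Its retrogene Cstf2t followed another order. Brain had 33.7 FPKM, cerebellum 28.2, testis 16.6, heart 16.3, ovary 15.6 and colon 11.3. Cerebellum exceeded testis (0.76 ± 0.14, adjusted p = 1.87e-05) and ovary exceeded colon (0.47 ± 0.13, adjusted p = 0.00371), while the neighbours among testis, heart and ovary (adjusted p = 0.938 and 0.745) did not differ beyond their spread. Brain was not called against cerebellum (0.25 ± 0.11, adjusted p = 0.0818), although its 6 libraries (30.9 to 37.7 FPKM) all lay above the 6 of cerebellum (25.5 to 29.4 FPKM). It was called when female heart 3 was left out (0.26, adjusted p = 0.0306), and with library size alone heart lay below ovary (−0.79, adjusted p = 2.82e-06).

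Gk was lowest in the gonads. Its tissue means were 13.8 FPKM in heart, 10.3 in cerebellum, 9.91 in colon, 9.75 in brain, 2.43 in ovary and 1.10 in testis. The first 4 tissues did not differ from their neighbours beyond their spread (adjusted p = 0.191, 0.849 and 1). Brain exceeded ovary by 2.0 ± 0.37 (log2, adjusted p = 5.35e-05). In colon the libraries ranged most widely, with 24.0, 6.62 and 5.52 FPKM in females and 5.40, 4.75 and 13.2 in males. The values of 24.0 and 13.2 belong to female colon 1 and male colon 3, the libraries rich in Fabp6 and Sis, and the part of this difference between the libraries was not tested. Without the 3 libraries that stood apart, Gk had 15.6 FPKM in heart and 5.57 in colon, and heart exceeded cerebellum (0.60 log2, adjusted p = 3.9e-05), cerebellum exceeded colon (0.88, adjusted p = 3.47e-07) and colon lay below brain (−0.80, adjusted p = 1.23e-06). Without female colon 1 alone, colon also lay below cerebellum (0.58, adjusted p = 0.02) and brain (−0.50, adjusted p = 0.0402).

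Over the 15 pairs of tissues, the parents differed in 49 of 60 cases, against 58.6% of cases over all genes. Cstf2 differed in 14 of 15 pairs, Pgk1 and Pdha1 in 13 each and Gk in 9. In the 5 pairs with testis, Pgk1, Pdha1 and Gk were each called lower in testis in all 5, and Cstf2 was called higher in 4, brain being the exception.

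**Figure D3:**
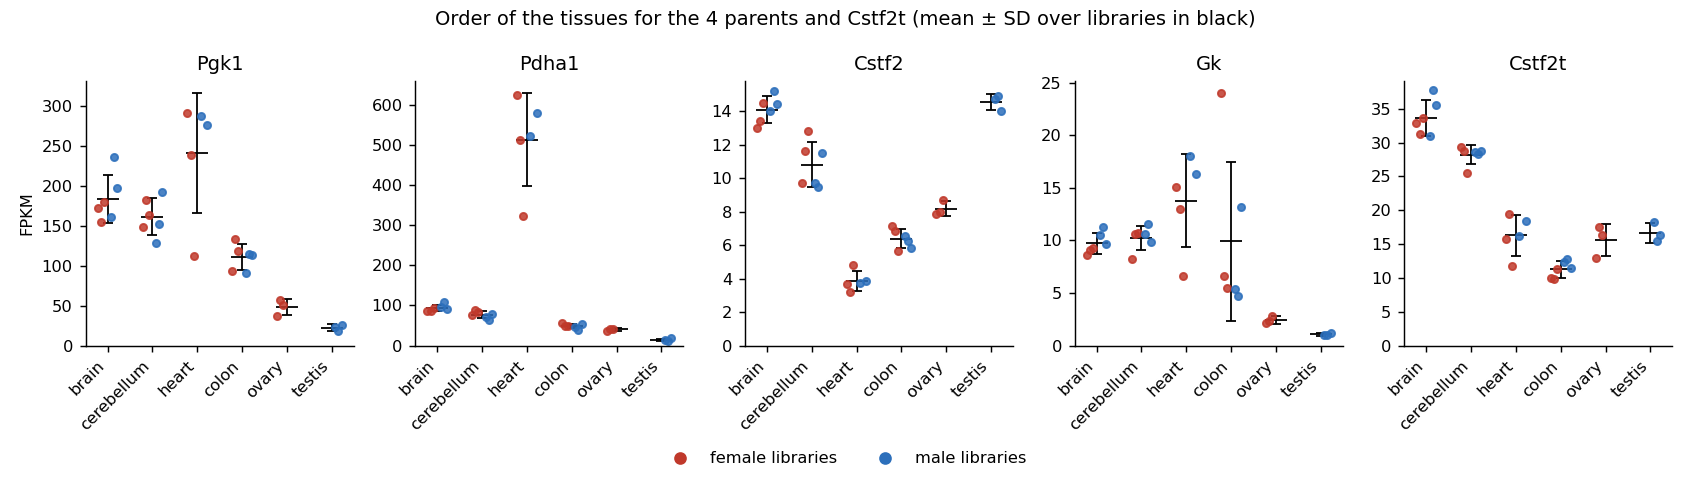
Levels of the 4 parents and of Cstf2t by tissue (points, 1 per library, FPKM on a linear axis, with mean ± SD). Pgk1, Pdha1 and Gk have their lowest tissue mean in testis (22.4, 14.2 and 1.10 FPKM), while Cstf2 has its highest there (14.5 FPKM).

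The balance within each pair followed from these levels. The retrogene's share of the pair, as FPKM of the retrogene over the sum of both, was 96.6% ± 0.718 for Pgk2, 87.8% ± 3.17 for Pdha2 and 99.7% ± 0.0585 for Gk2 in testis (SD, n = 3). Outside testis it was at most 1.27%, 0.263% and 2.51% in any library. The shared windows of Pgk1 limit the first of these shares, since the parent's level may be understated. For Cstf2t the balance went the other way. Its share was 53.3% ± 2.26 in testis and between 58.3% and 85.9% in the other 26 libraries, with the highest tissue mean in heart (80.3% ± 5.66, n = 5). All 3 testis libraries lay below all others.

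The ratio of retrogene to parent was compared in an exact two-sided permutation test over all 3654 choices of 3 libraries, on log2((FPKM + 0.1)/(FPKM + 0.1)). It was higher in testis by 14.82 for Pgk2 to Pgk1, by 12.68 for Pdha2 to Pdha1 and by 14.33 for Gk2 to Gk. These 3 differences restate levels for which the retrogenes were listed and are given as a description with no p. The size of these differences is set in part by the added 0.1. For Cstf2t to Cstf2 the ratio was lower in testis by a log2 difference of −1.10 (p = 0.00109, and 0.00109 adjusted over the 4 pairs, exact permutation test, in which the smallest possible p is 0.000274), a comparison that the added value hardly touches. In this test 4 choices, the testis libraries among them, gave a difference at least as large. It takes all libraries as exchangeable and ignores their grouping by tissue. Outside testis the mean log2 ratio of this pair ran from 0.81 in colon to 2.04 in heart. The p therefore does not measure the spread between tissues, of which testis is 1. The direction was the same in 3 of 3 testis libraries for each pair.

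**Figure D4:**
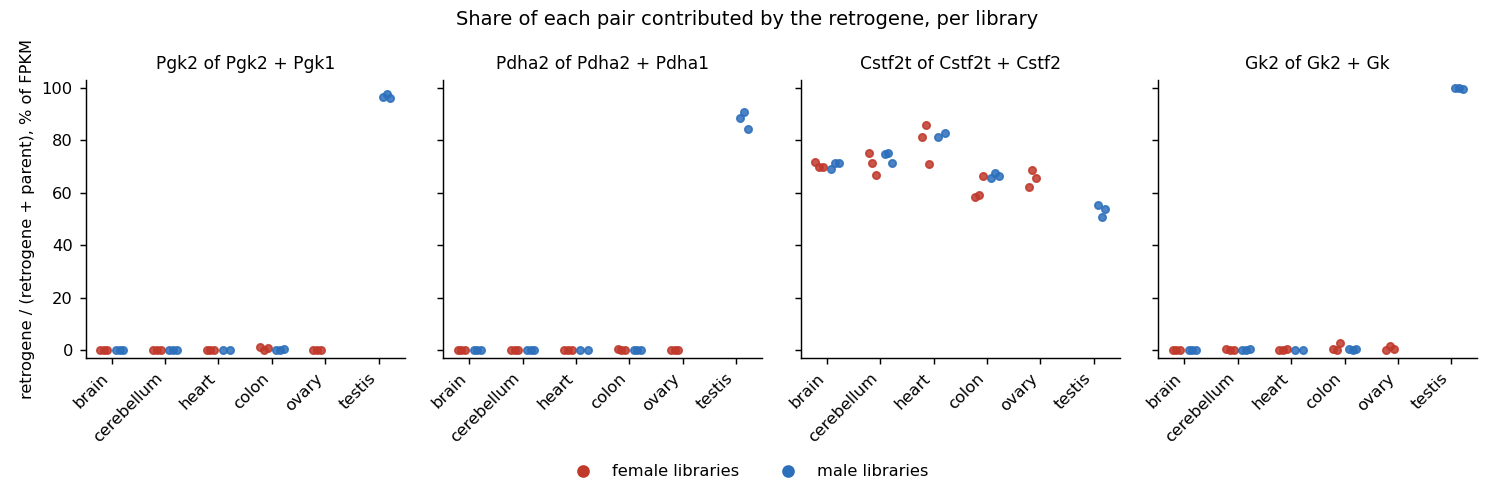
Share of each pair contributed by the retrogene (percent of summed FPKM, 1 point per library) by tissue, with female and male libraries in different colours. The share in testis is 96.6%, 87.8% and 99.7% for Pgk2, Pdha2 and Gk2 and at most 2.51% elsewhere, and for Cstf2t it is lowest in testis at 53.3%.

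The 2 genes of a pair were also added up. The Pgk pair summed to 657 FPKM in testis, above the 37.6 to 291 FPKM of the other libraries, and the Gk pair to 332 FPKM against 2.14 to 24.1. Outside testis the Pgk sum is nearly all Pgk1, of whose windows 51.7% were shared with other genes. The sum there may thus be understated, which limits its comparison with testis. The Pdha pair summed to 116 FPKM in testis, more than brain (93.5) and less than heart (512). The Cstf2 pair summed to 31.2 FPKM in testis, within the 16.5 to 52.9 FPKM of the other 26 libraries. Its tissue mean in testis lay between those of cerebellum (39.0) and ovary (23.8).

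Against ovary, the other gonad, 7 of the 8 genes differed, where 64.3% of all genes tested were called, 37.8% higher and 26.5% lower in testis. The 7 include Pdha2 and Gk2, which passed the filter only with testis and whose calls follow from it. Pgk1 was lower in testis (log2 −1.12 ± 0.25, SE, adjusted p = 0.000371), its ovary libraries having 37.6, 56.6 and 51.2 FPKM. Pdha1 was 2.83-fold lower (−1.50 ± 0.20, adjusted p = 3.03e-07), against 36.3, 42.2 and 42.3 FPKM in ovary. Gk was 2.21-fold lower (−1.15 ± 0.41, adjusted p = 0.0178), against 2.14, 2.32 and 2.82 FPKM, and this call was lost when ovary 3, testis 1 or testis 2 was left out (−1.03, −1.10 and −1.06). Cstf2 was 1.78-fold higher (0.83 ± 0.14, adjusted p = 1.48e-05), against 7.87, 7.99 and 8.67 FPKM. With library size alone as the scale, its difference was 0.19 and was not called (adjusted p = 0.444). Cstf2t differed by 0.09 ± 0.15 (adjusted p = 0.607) with overlapping libraries, and the direction turned to −0.54 (adjusted p = 0.000931) with library size alone and to −0.03 without ovary 1. The number called with library size alone was again 7, with Cstf2t in place of Cstf2. Of all calls between testis and ovary 58.8% were higher in testis, and 44.1% with library size alone.

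None of the 8 genes was called between the sexes in brain, cerebellum, heart or colon, 0 of 32 comparisons. Few genes were called in all, 0.0368% in brain, 0.0301% in cerebellum, 0.0635% in heart and 0.324% in colon. DESeq2 called 0 of the 32 as well. At an unadjusted p under 0.05, edgeR gave 1 of the 32, Pgk2 in colon (male minus female −2.58 ± 0.91 log2, adjusted p = 0.353), which rests on the few counts of 3 libraries given above. None of the 8 genes was called for a difference between the sexes in tissue pattern either (interaction of sex and tissue, lowest adjusted p = 0.867, for Gk), and 5 of all genes tested were. In brain, Pgk1 had 172, 155 and 180 FPKM in females and 161, 237 and 198 in males, and Pdha1 had 86.0, 86.3 and 93.3 in females and 96.3, 108 and 91.3 in males. Both genes overlapped between the sexes in brain.

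The rest of each pathway was followed with gene lists from which the 8 genes were left out. Their counts stand beside 40.6% of all genes called higher and 26.7% called lower in testis than in the other groups (median 0.11), and 37.8% and 26.5% against ovary (median 0.15). Of 27 glycolysis genes tested, 11 were higher and 9 lower in testis than in the other groups (median −0.42 log2), a share higher that was near that of all genes. Of the 27, 3 passed the filter only with testis. The higher genes included forms known from sperm. Ldhc, a lactate dehydrogenase, had 1060 ± 41.3 FPKM in testis and at most 2.12 elsewhere, and Aldoart1, an aldolase that is itself a retrogene, had 64.9 ± 2.19 and at most 0.109. Pgam2, a phosphoglycerate mutase also used in muscle, had 884 ± 25.5 FPKM in testis and 0.525 to 1240 in the other libraries. Among the lower genes, Gapdh had 28.0 ± 3.91 FPKM in testis against 46.4 to 750 (−2.98 ± 0.30, adjusted p = 2.01e-09). Pfkl had 4.43 ± 0.689 against 8.1 to 57.0 (adjusted p = 2e-09). The neuronal enolase Eno2 had 0.244 ± 0.11 (adjusted p = 2.77e-13), within its range of 0.0952 to 252 elsewhere. Against ovary, 19 of the 27 were higher and 4 lower (median 1.92 against 0.15), or 14 and 6 with library size alone. Aldoc and Gapdhs were counted jointly with other genes and were not tested.

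Of 13 other genes of the pyruvate dehydrogenase complex and its regulators, 3 were higher and 5 lower in testis (median −0.14 against 0.11 over all genes, of which 40.6% were higher and 26.7% lower), or 3 and 8 with library size alone. The kinase Pdk3, which is itself X-linked, was higher at 43.9 ± 1.24 FPKM against 2.23 to 25.2 (1.69 ± 0.10, adjusted p = 1.24e-13). The mitochondrial pyruvate carrier subunits went opposite ways, Mpc2 being higher (1.31 ± 0.18, adjusted p = 3.16e-07) and Mpc1 lower (−2.18 ± 0.22, adjusted p = 1.93e-09). Pdhx, a structural component of the complex, was higher by 0.57 ± 0.14 (adjusted p = 0.000661), and Pdp2, a phosphatase that activates it, and the kinase Pdk1 were lower (−1.46 ± 0.15 and −1.11 ± 0.14, adjusted p = 3.36e-09 and 6.73e-08). Against ovary, 7 were higher and 1 lower (median 0.33), or 6 and 6 with library size alone. With no filter on low counts 3 were lower than in ovary, and without the 3 libraries that stood apart 2.

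Of 18 genes of mRNA cleavage and polyadenylation, 12 were higher and 2 lower in testis (median 0.81), where 40.6% and 26.7% of all genes were. Against ovary 10 were higher and 2 lower (median 0.65), where 37.8% and 26.5% of all genes were, or 7 and 7 with library size alone. The number lower than in ovary was 1 by DESeq2 and 4 with no filter on low counts. Cstf1, the partner of Cstf2 in the cleavage stimulation factor, had 30.1 ± 1.00 FPKM in testis against 3.59 to 9.58 elsewhere, with no overlap (2.33 ± 0.10, adjusted p = 1.18e-16). Clp1, of the cleavage factor, had 20.8 ± 1.45 FPKM against 2.95 to 7.02 (2.22 ± 0.12, adjusted p = 3.42e-15), and Cpsf4l had 14.5 ± 1.94 against 0 to 3.84. Cpsf7 and Cpsf6, of another cleavage factor, were lower by smaller amounts (−0.64 ± 0.10 and −0.42 ± 0.13, adjusted p = 2.9e-06 and 0.00551). Papolb and Pabpn1 were counted jointly with other genes and were not tested.

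Of 11 glycerol metabolism genes, 7 were higher and 2 lower in testis (median 1.38), where 40.6% and 26.7% of all genes were. Against ovary 8 were higher and 2 lower (median 1.94), where 37.8% and 26.5% of all genes were. Gykl1, another glycerol kinase-like gene, had 238 ± 7.46 FPKM in testis and at most 0.488 elsewhere, and passed the filter only with testis. Adipocyte genes differed between the same libraries, Adipoq having 36.0 to 44.7 FPKM in testis and 0 to 623 elsewhere, and their part in this list was not tested. The aquaglyceroporins Aqp7 and Aqp9, membrane channels for glycerol, had 104 ± 5.54 and 21.3 ± 1.26 FPKM in testis against at most 19.3 and 1.44. Gpd1l, a glycerol phosphate dehydrogenase, and Gpam, the acyltransferase that begins glycerolipid synthesis, were lower (−2.01 ± 0.15 and −0.64 ± 0.16, adjusted p = 8.36e-12 and 0.00117). Aqp3 was under the filter on low counts, and the listed symbol Gyk, which may be another name of Gk, had no match in the table.

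For comparison, 7 further autosomal retrogenes with X-linked parents were listed, and 6 could be tested, Utp14b being counted jointly with another gene. Of these, 5 passed the filter on low counts only with the testis libraries in it, so that their higher level there is a description and not a test. Rbmxl1 passed without testis and was not called (−0.32 ± 0.15, adjusted p = 0.0617), although it was lower than in ovary (−1.03, adjusted p = 5.6e-05). Rbmxl1 was called lower than the other groups with library size alone, with no filter on low counts, without the 3 libraries that stood apart, and when female heart 3, female colon 1, testis 1 or male colon 2 was left out. Cetn1 had 223 ± 11.1 FPKM in testis and at most 0.0962 elsewhere, Rpl39l 168 ± 10.7 and at most 0.522, and Rpl10l 128 ± 2.77 and at most 0.334. Rbmxl1 had 9.16 ± 1.42 FPKM in testis within a range of 6.08 to 19.8 elsewhere, so that, like Cstf2t, it was present in every library. Their 6 parents, Rbmx, Utp14a, Rpl10, Rpl39, Cetn2 and G6pdx, passed the filter without testis and were all called lower in testis (median −1.08, from −1.72 ± 0.12 for Rbmx to −0.72 ± 0.12 for Utp14a), and all were lower than in ovary too (median −1.77). Of all genes 26.7% were called lower than in the other groups and 26.5% lower than in ovary, and of the X-linked protein-coding genes 38.7% were lower than in the other groups. The call of G6pdx against the other groups (−0.87 ± 0.36, adjusted p = 0.033) was lost without testis 1 (−0.82) or testis 2 (−0.72). Against ovary (−1.17) it was lost by DESeq2 and without ovary 2, ovary 3, testis 1 or testis 2, at −0.99 to −1.12. Among the 10 parents together, Cstf2 was the only one that was higher.

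**Figure D5:**
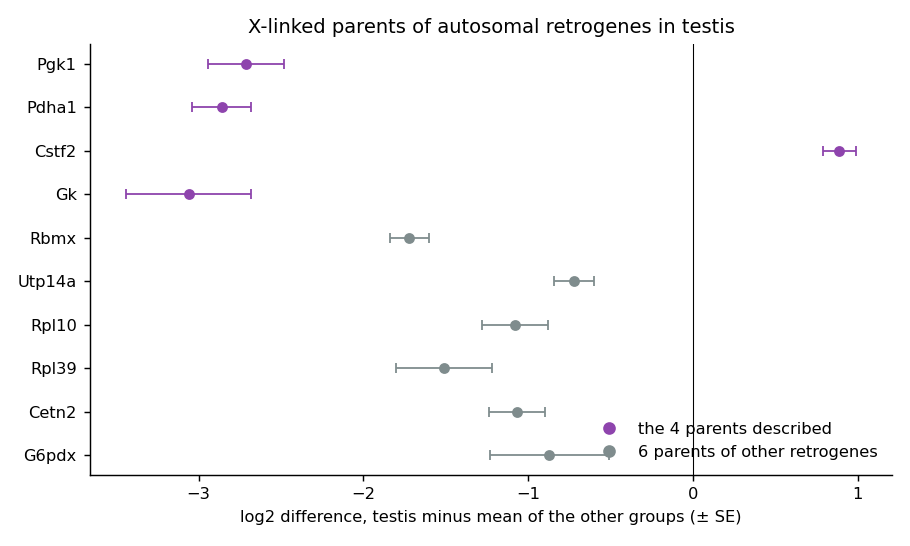
Level in testis minus the average of the other 9 groups (log2, points ± SE from the edgeR fit) for the 4 parents described and for the 6 parents of other autosomal retrogenes. Pgk1, Pdha1 and Gk lie at −2.71 or lower, the 6 other parents between −1.72 and −0.72, and Cstf2 at 0.89.

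The genes whose log2 CPM over the 29 libraries was most like that of each gene are given as a description. The libraries of a tissue share its cell types, so high values are common for tissue-restricted genes. For Pgk2 the closest were Pabpc2, Prdx6b and 1700013G24Rik (r = 0.995 each), for Pdha2 G6pd2, Ctag2 and Tex13c1 (r = 0.998 each) and for Gk2 Gm15130, AF366264 and Ankrd60 (r = 0.997, 0.997 and 0.996). G6pd2 is also one of the testis-restricted retrogenes of the preceding comparison, with 21.8 ± 2.69 FPKM in testis. The closest to Pdha1 were its overlapping neighbour Map3k15 (r = 0.992), Pde4dip and Egln1 (r = 0.982 each). For Pgk1 they were Tmem63b, Trak2 and Ank (r = 0.976, 0.974 and 0.973), and for Gk they were Camk2d, Aig1 and Rab21 (r = 0.929, 0.916 and 0.915). Cstf2 was closest to Atxn7l3b, Ppp2r2b and Rpgrip1l (r = 0.970, 0.969 and 0.964), while Cstf2t was closest to Snap47, Taok2 and Cdk5 (r = 0.975, 0.974 and 0.972). Between parent and retrogene, r was 0.603 for Cstf2 and Cstf2t. It was −0.758 for the Pgk pair, −0.599 for the Pdha pair and −0.742 for the Gk pair.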

How the data were processed

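Strand-specific RNA-seq libraries were made after removal of ribosomal RNA. The authors deposited whole-number read counts per gene, without normalization, from uniquely mapped reads on a GRCm38.p6 annotation that combines Iso-seq and ENSEMBL models. The submitters' processing notes name HISAT2 2.0.5, featureCounts 1.6.3, FastQC 0.11.8, MultiQC 0.9 and mm10. Whether the counting used the strand is not given in the sources used here. All 29 count columns were used, and there were 0 further columns with values of samples.

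Counts were tested with edgeR 4.0.16 (quasi-likelihood test, TMM, filterByExpr by group) in R 4.3.3, in 1 fit of 10 group means, with Benjamini-Hochberg adjustment over the 29911 genes tested. All 8 genes passed the filter, Pdha2 and Gk2 only through testis. Pair ratios and exact permutation tests were computed in Python 3.11.15 with scipy 1.17.1. Coding sequences and transcripts came from GENCODE M21 and promoters from RefSeq, which held all 8 genes, both on GRCm38.p6. The shared windows were searched in GENCODE transcripts only.

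The genes and lists were chosen with earlier results of these data known. Besides the 8 genes, the genes named are the 3 of highest correlation with each and, from each list, up to 3 that were higher and 3 that were lower in testis, those with the smallest adjusted p. Neighbours, markers and genes that could not be tested, and Rbmxl1, G6pd2 and the parents of the other retrogenes, were named outside this rule. Alternatives were DESeq2 1.42.0, library size alone, no filter on low counts, the replicate number as a block, each tissue given equal weight, other lengths and pseudocounts, and each library left out in turn. Leaving out the 3 libraries that stand apart, or female colon 1 from the pooled counts, was chosen after seeing the data. No 2 libraries of a group were identical or agreed within sampling noise.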

Additional observations from a re-analysis of the deposited data

How the results depend on the processing

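The counts of retrogenes called higher (3 of 4, of which 2 follow from the filter on low counts) and parents called lower (3 of 4) in testis were the same number under every alternative and with each of the 29 libraries left out, and so was the 0 of 32 between the sexes. The 7 of 8 against ovary ranged from 6 to 7 with 1 library left out, and the 49 of 60 pairs of tissues from 43 (library size alone) to 56 (without the 3 libraries that stood apart). Of 425 values under alternatives other than leaving out 1 library, 366 kept their direction and side of the threshold, 14 reversed, 20 lost a call, 14 gained one and 11 moved. Of 2315 values with 1 library left out, 2236 were unaltered in this sense. Against the 3 ovary libraries alone, the log2 ratio of retrogene to parent in testis differed by 13.65, 11.52, −0.72 and 12.56 for the pairs of Pgk2, Pdha2, Cstf2t and Gk2, with p = 0.1 for Cstf2t in the exact permutation test, the smallest that 3 against 3 allows. Without female heart 2 or female heart 3, 2 genes of the pyruvate dehydrogenase list were lower than in ovary in place of 1, and without testis 2 or ovary 1, 1 polyadenylation gene was lower than the other groups or than ovary in place of 2. With the longest transcript as length, the share of Cstf2t in testis was 47.5%.

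With library size alone, testis against ovary reversed for Cstf2t (−0.54), as did Pgk1 heart minus brain (−0.05), Pdha1 colon minus ovary (−0.02), Cstf2 testis minus brain (−0.15), Cstf2t heart minus ovary (−0.79), Gk heart minus cerebellum (−0.15) and Gk colon minus brain (0.15). With no filter on low counts, the reversals were Cstf2t testis against ovary (−0.11), Cstf2 testis minus brain (−0.06), Cstf2t testis minus heart (−0.13) and Gk colon minus brain (0.11). DESeq2 reversed Gk cerebellum minus colon (−0.15) and Gk colon minus brain (0.26), and leaving out the 3 libraries that stood apart reversed Cstf2t testis minus heart (−0.07). With 1 library left out, the ranges that crossed 0 were −0.03 to 0.18 for Cstf2t testis against ovary, −0.07 to 0.11 for Cstf2t testis minus heart, −0.05 to 0.16 for Cstf2t heart minus ovary, −0.09 to 0.58 for Gk cerebellum minus colon and −0.50 to 0.19 for Gk colon minus brain. The scale moved the median gene by the shifts given above. For the other settings the cause was not tested.

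Replicate numbers gave no sign of pairing the libraries, but this check cannot tell whether libraries came from the same animal. Over 56 pairs of same-numbered libraries of 1 sex, the correlation of deviations from the group mean was −0.259 to 0.093 (median −0.001). Over 112 pairs of 1 sex with different numbers it was −0.236 to 0.279 (median 0.002). With the replicate number as a block, the ratio differences were 14.80, 12.67, −1.10 and 14.32, the parents differed in 50 of 60 cases, and Pgk1 heart minus brain was called (0.44, adjusted p = 0.0477). Outside testis, Pgk2, Pdha2 and Gk2 had 0 to 24 counts per library, so their differences among the other tissues rest on few counts.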
